A study of Mus musculus with 24 samples.

Results

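The genes examined here encode the subunits of the receptors for glutamate and GABA, the main excitatory and inhibitory transmitters of the cortex. They were the rows of the count table whose symbols follow the naming of AMPA, kainate, delta, NMDA and metabotropic glutamate receptors and of GABA-A and GABA-B receptors, with a mean of at least 0.2 counts per 1000000 (CPM) over all libraries. Of 24421 genes in the table, 49 rows matched by name and 43 reached that level. The 6 below it were Grin3b, Grm6, Gabra6, Gabrp, Gabrr1 and Gabrr3. Of the 43 genes, 41 encode receptor subunits, 24 for glutamate and 17 for GABA. The other two matched by name only: Grid2ip encodes a scaffold protein that binds a delta receptor, and Grin1os is a transcript on the strand opposite to Grin1. All 41 subunit genes passed the filter on low counts and were tested.

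RNA came from the cortex of 24 mice aged 7.5 months, with 1 library per mouse and 6 mice per genotype. Every mouse carried 5xFAD, a set of human transgenes with familial Alzheimer mutations that drives amyloid deposition, so the wild type of this series is a 5xFAD mouse with intact Trem2 and Plcg2 (WT), and no mouse without 5xFAD was analysed here. The other groups were 5xFAD with knockout of Trem2 (Trem2KO), 5xFAD with knockout of Plcg2 (Plcg2KO), and 5xFAD labelled as a heterozygous knockout of Plcg2 (labelled Plcg2HET). Plcg2KO held 4 males and 2 females and each other group 3 of each sex, and no treatment is named in the labels. Mice are named by genotype and by the sex and number code of the labels (M1, F3). Trem2 encodes a receptor of microglia and Plcg2 a phospholipase of its signalling pathway, so the comparisons ask how receptor subunit genes, which are mainly neuronal, stand in amyloid-bearing cortex when a microglial gene is lost. The labels name neither the exons targeted nor a cell type for either knockout.

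AMPA, kainate and NMDA receptors are tetrameric channels opened by glutamate, and the subunits that assemble set conductance, calcium entry and kinetics. In NMDA receptors an obligatory GluN1 subunit (Grin1) joins GluN2 subunits (Grin2a to Grin2d), of which GluN2B predominates early in development and GluN2A and GluN2C give receptors with other kinetics and glycine or magnesium sensitivity. Metabotropic glutamate receptors couple to G proteins, with group I receptors mainly postsynaptic and group II and III receptors mainly damping release. GABA-A receptors are pentameric chloride channels built from alpha, beta and gamma or delta subunits, and GABA-B receptors are G protein-coupled pairs of Gabbr1 and Gabbr2 products.

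Library checks came before the results. Total counts were 36.3 M to 83.0 M per library (M, 1000000 reads). Plcg2 stood at 0.984 ± 0.159 CPM in Plcg2KO against 11.8 ± 3.14 in WT, and Trem2 at 6.01 ± 1.21 CPM in Trem2KO against 82.5 ± 34.9 in WT (mean ± SD, n = 6). In the libraries labelled Plcg2HET, Plcg2 stood at 12.0 ± 4.98 CPM (range 5.89 to 19.8), not below WT, so that group is named by its label throughout. The cortical genes Slc17a7 (1282 to 2512 CPM, before TMM scaling) and Tbr1 (113 to 230.2) were present in all 24 libraries. Of 10 cerebellum markers, Gabra6 and Pcp2 reached at most 0.113 and 0.0578 CPM, but others were present in every library. The 10 summed to 167.9 to 212.4 CPM in WT and 152.9 to 186.9 in Trem2KO. They summed to 170.6 to 211.8 CPM in Plcg2KO and 146.9 to 207.1 in the libraries labelled Plcg2HET. Calb1 made up most of this sum (mean 135.1 CPM before TMM scaling), and Zic2 had a mean of 13.23. Summed CPM of 9 hippocampal markers was 128.6 to 210.2 in WT, 237.5 to 272.5 in Trem2KO, 191.5 to 247 in Plcg2KO and 186.3 to 302.9 in the libraries labelled Plcg2HET. Wfs1 made up most of it (mean 193.8 CPM before TMM scaling). Of these 9, 1 was called against WT (adjusted p under 0.05, edgeR) in Trem2KO, 2 in Plcg2KO and 1 in the libraries labelled Plcg2HET, all higher. Of 8 thalamic markers, 1, 3 and 2 were called in that order, all higher. Of 10 striatal markers, 0, 0 and 3 were called (1 higher, 2 lower). The shares of all genes called were 15.7%, 13.1% and 18.0%. Of 12 microglial markers, 11 were lower in Plcg2KO and 10 in Trem2KO than in WT. These 12 include Trem2 itself, the gene knocked out in Trem2KO. Pan-neuronal markers (15 genes) summed to 16540 to 20420 CPM in WT, 18100 to 20410 in Trem2KO, 17750 to 19620 in Plcg2KO and 19400 to 25690 in the libraries labelled Plcg2HET. Across 15693 genes, each library's deviations from the mean of all libraries correlated with GC content (Spearman) at -0.566 to -0.285 in Plcg2KO, -0.076 to 0.52 in Trem2KO and -0.511 to 0.258 in WT. Among the libraries labelled Plcg2HET, M3 (-0.451) and F2 (-0.371) stood apart from M1, M2, F1 and F3 (0.279 to 0.556). The ribosomal precursor Rn45s took over 5% of counts in labelled Plcg2HET F3 (29.0%) and F1 (5.29%) and in WT F1 (9.59%). The part of these differences in the results below was not tested, except where a fit without them is given.

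Levels were compared between genes as CPM per kilobase (kb) of counted exons. In WT, Gabbr1, a subunit of the GABA-B receptor, stood highest at 213 ± 21.9 CPM per kb, and Grin1 (119 ± 24.9) came next, with high levels also of the AMPA subunit genes Gria1 (69.1 ± 4.97) and Gria2 (63.1 ± 11.6; mean ± SD, n = 6). The lowest were Gabre (0.0829 ± 0.0371), Gabrq (0.247 ± 0.0892), Gabrr2, a rho subunit gene known from retina (0.505 ± 0.139), and Grin2a (1.25 ± 0.313). Most neighbours in this order overlapped in their ranges over 6 mice. Among the pairs whose ranges did not overlap were Gabbr1 and Grin1, Gabra4 (26.3 ± 3.35) and Grm5 (15.8 ± 3.40), Grin2a and Gabrr2, and Gabrq and Gabre. The counted exons covered 13.4% (Gabrb1) to 119% (Gabrb2) of the bases that GENCODE M21 lists for the gene, with 25.2% for Grin2a and 30.2% for Grin2b, so a level per kb depends on the gene model used. By class, the sum over subunits in WT was 251 ± 27.4 CPM per kb for GABA-B, 183 ± 27.0 for GABA-A alpha, 176 ± 23.8 for AMPA, 149 ± 24.4 for NMDA and 91.0 ± 13.5 for GABA-A beta. The NMDA sum was 202 ± 24.7 in Trem2KO and the GABA-A alpha sum 211 ± 10.6 in Plcg2KO, given here without a test.

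**Figure D1:**
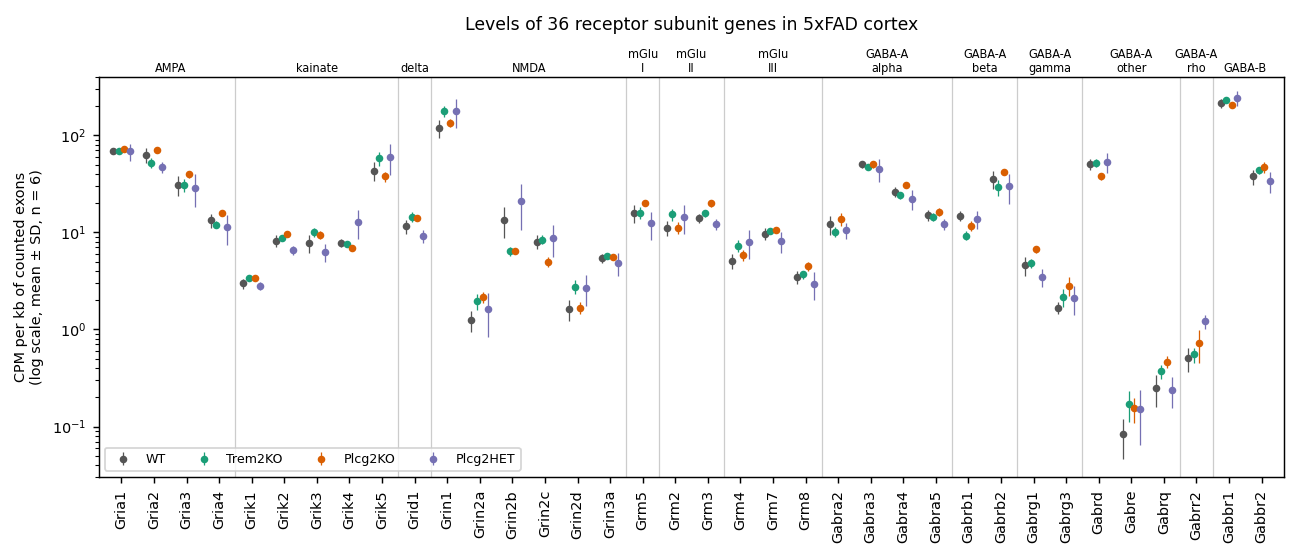
Level of 36 of the 41 subunit genes in CPM per kb of counted exons (log axis), grouped by receptor class. Points are genotype means and bars SD of 6 mice; levels run from 0.0829 (Gabre, WT) to above 200 (Gabbr1), and genotypes lie close together beside the spread between genes.

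Genotype differences were tested in a model fitted to all 16316 genes that passed the filter, and a gene is called when its adjusted p is under 0.05 (edgeR's quasi-likelihood F-test, Benjamini-Hochberg). Over the 4 genotypes together, 32 of 41 subunit genes were called, 19 of 24 for glutamate and 13 of 17 for GABA, where 45.7% of all genes tested were called. All 5 kainate and 5 of 6 NMDA subunit genes were among them. Among the 9 not called were Gria1, Gria3, Grin3a, Grm7, Gabra3, Gabre and Gabbr1. Gria1, encoding an AMPA receptor subunit, stood at 413 ± 29.7, 409 ± 23.9, 433 ± 21.1 and 408 ± 82.9 CPM in WT, Trem2KO, Plcg2KO and the libraries labelled Plcg2HET (SD, n = 6, adjusted p = 0.864). With males alone 9 of 41 were called (4.59% of all genes), and with females alone 14 (12.6%).

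In Plcg2KO against WT, 5 subunit genes were higher (5.44% of all genes tested were) and 3 lower (7.63%). Grin2a, Grm3, Gabrg1, Gabrg3 and Gabrq rose, and Grin2b, Grin2c and Gabrd fell. The median log2 fold change over the 41 genes was 0.20, against -0.003 over all genes, and 32 of 41 values were positive. For 5 of the 8 called genes (62.5%) no Plcg2KO library overlapped WT, as for 53.5% of all called genes. In bulk RNA, fewer cells of a type and less RNA per cell cannot be told apart. Leaving out Plcg2KO F1 left 5 calls (8.78% of all genes, against 13.1% with all libraries). Males alone gave 0 (2.25%) and females alone 6 (5 higher, 1 lower, 6.1%). A fit to these 2 genotypes alone gave 18 (14 higher, 4 lower, 22.3% of all genes). Without labelled Plcg2HET M3 and F2, which also set the common spread, 20 were called (22.7% of all genes).

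In Trem2KO against WT, 8 were higher (7.56% of all genes) and 2 lower (8.16%). Grik3, Grid1, Grin1, Grin2d, Grm2, Grm4 and Gabrq were among those that rose, and Grin2b and Gabrb1 fell. The median over the 41 genes was 0.09, against -0.02 over all genes, and 7 of 10 called genes (70.0%) had no overlap with WT, as did 55.9% of all called genes. Scaling to pan-neuronal genes moved the median of all genes to -0.14 and gave 4 higher and 3 lower (15.3% of all genes in either direction). Counts were 5 without WT M2, 5 without WT F1, 6 without WT F3 and 6 without Trem2KO M1, and 5 without the libraries rich in Rn45s, and the share of all genes called moved from 15.7% to 10.9%, 10.1%, 11.1%, 11.7% and 11.1% in that order.

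In the libraries labelled Plcg2HET against WT, 6 were higher (10.9% of all genes) and 6 lower (7.13%), with a median of -0.12 over the 41 genes and -0.006 over all genes. Grik4, Grin1, Grin2b, Grin2d, Grm4 and Gabrr2 were higher and Gria2, Grik2, Grid1, Gabra5 and Gabrg1 were among the lower, and of the 12 called genes 1, Gabrr2, did not overlap WT (19.2% of all called genes did not). This comparison rested on a divided group: for 37 of 41 subunit genes both M3 and F2 lay outside the range of the other 4 libraries, above it for 26 genes and below it for 11. The count was 21 without M3, 23 without F2 and 34 (11 higher, 23 lower) without both, a fit chosen after seeing the data, and 1 without the libraries rich in Rn45s. The share of all genes called moved with it, from 18.0% to 26.7%, 24.3%, 44.2% and 4.89%. Scaled to pan-neuronal genes, which moved the median of all genes to -0.26, 2 were higher and 21 lower (30.8% of all genes in either direction).

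Plcg2KO against Trem2KO gave 7 higher (7.63% of all genes) and 5 lower (8.82%). Gria2, Grm3, Gabra2, Gabra4, Gabrb1, Gabrb2 and Gabrg1 were higher in Plcg2KO, and Grik5, Grin2c, Grin2d, Grm2 and Gabrd lower. The count was 3 without Trem2KO M1, 7 without Trem2KO F1 or without Plcg2KO F1, and 6 without Trem2KO F3 or without Plcg2KO F2, and 20 without labelled Plcg2HET M3 and F2. In that order 4.69%, 9.52%, 6.96%, 6.47%, 8.05% and 33.0% of all genes were called, against 16.5% with all libraries. Offsets that remove the trends with GC content and length left 4 calls (6.89% of all genes), and these are described with the GC content of the genes below. The 3 comparisons with WT share the WT libraries, so their values are set side by side and not compared as independent.

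**Figure D2:**
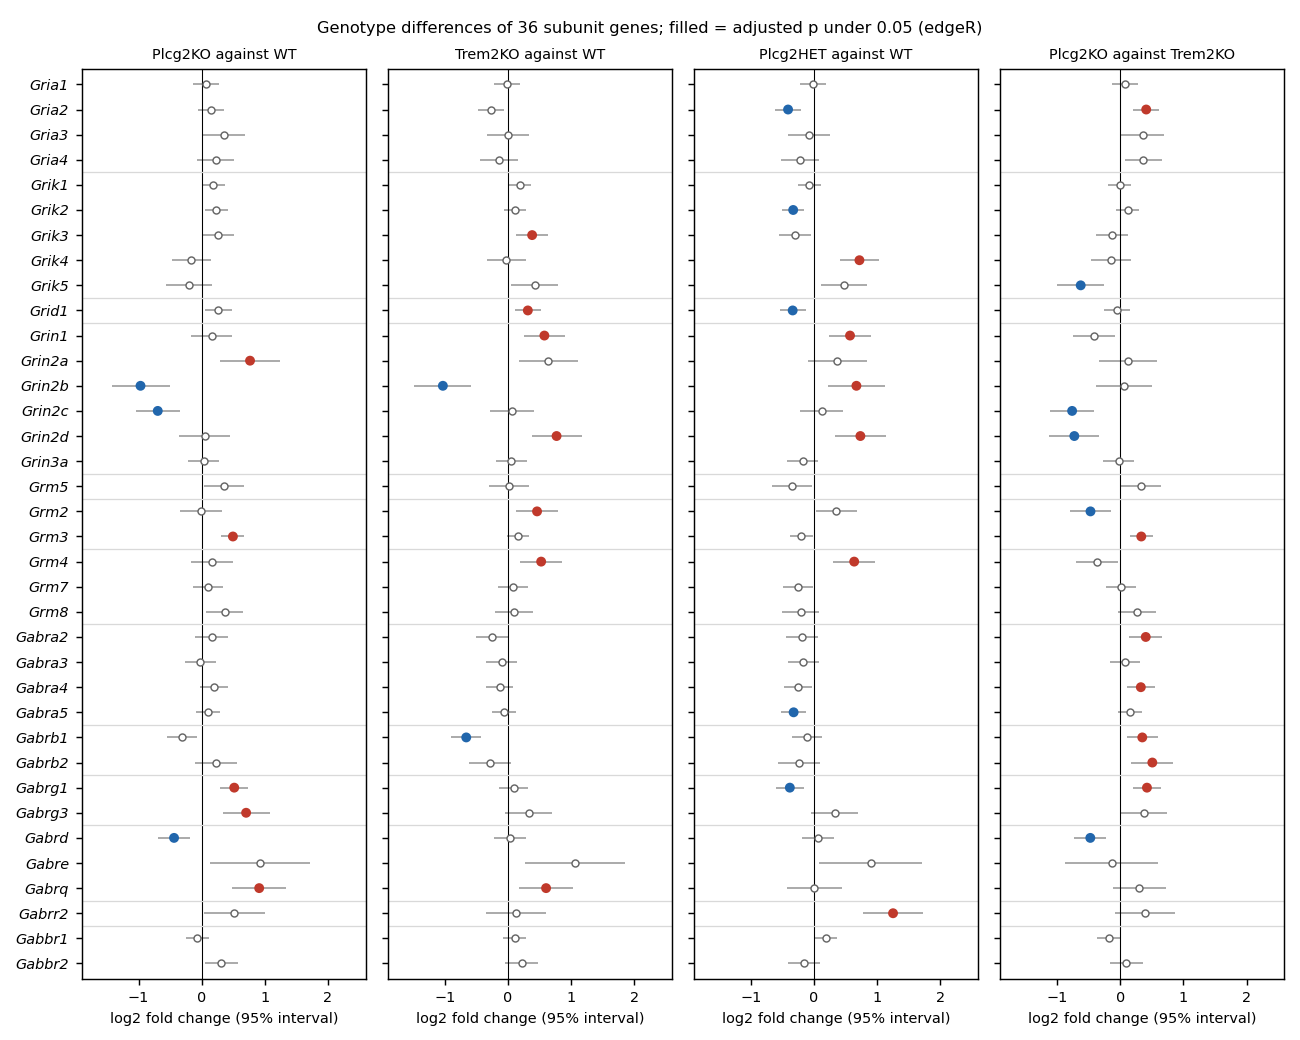
Log2 fold change of 36 of the 41 subunit genes with its 95% interval in 4 comparisons, by receptor class from AMPA (top) to GABA-B (bottom). Filled points passed an adjusted p of 0.05 (red higher, blue lower); Grin2b lies near -1 in both knockouts against WT and at 0.67 in the libraries labelled Plcg2HET.

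The called change of greatest size in each knockout was that of an NMDA receptor subunit gene, Grin2b. Grin2b (chromosome 6, 135729805 to 136173511, minus strand, mm10), encoding GluN2B, stood at 71.5, 86.7 and 145 CPM in WT, 42.9, 47.4 and 53.8 in Trem2KO, 43.3, 48.9 and 52.1 in Plcg2KO and 64.8, 156 and 277 in the libraries labelled Plcg2HET (lowest, median and highest of 6 libraries, here and below). All 12 knockout libraries lay below all WT libraries, and 4 of the 6 libraries labelled Plcg2HET lay above 137 CPM. It fell in Plcg2KO (log2 fold change -0.97, SE 0.22, adjusted p = 0.00413) and in Trem2KO (log2 fold change -1.03, SE 0.22, adjusted p = 0.00226), and the knockouts differed by 0.06 (95% interval -0.39 to 0.51). WT males held 71.5 to 76.5 CPM and WT females 97.0 to 145, so each sex of WT stood above both knockouts. In males alone the log2 fold changes were -0.66 in Plcg2KO (adjusted p = 0.25) and -0.65 in Trem2KO (adjusted p = 0.363), and in females alone -1.33 (adjusted p = 0.0284) and -1.35 (adjusted p = 0.0133). The 3 WT females also had negative trends of their deviations with exon length (-0.449 to -0.232) where the 3 WT males had positive ones (0.123 to 0.149). With GC and length offsets the fold changes were -1.14 (adjusted p = 0.0152) and -1.04 (adjusted p = 0.0239). With the deposited expected counts they were -0.76 (adjusted p = 0.0294) and -0.77 (adjusted p = 0.0204), by edgeR. There Gabrq in Plcg2KO (0.885) and Grin2d in Trem2KO (0.861) changed by more than Grin2b. In the libraries labelled Plcg2HET, Grin2b was higher than in WT (log2 fold change 0.67, SE 0.22, adjusted p = 0.0333), with 64.8 and 88.1 CPM in M3 and F2 against 138 to 277 in the other 4. That call was lost without WT M1, M2, M3 or F2 or labelled Plcg2HET M2, F1 or F3 (range over 24 such fits 0.48 to 0.82, adjusted p up to 0.126), and with GC and length offsets, at 0.83 (adjusted p = 0.0588).

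Grin2a (chromosome 16, 9577710 to 9992533, minus strand), encoding GluN2A, was counted far less often than Grin2b. Its values were 3.83, 5.67 and 7.33 CPM in WT, 6.48, 8.96 and 10.7 in Trem2KO, 7.53, 9.90 and 11.1 in Plcg2KO and 2.57, 7.11 and 12.6 in the libraries labelled Plcg2HET, from 11263 counts over 24 libraries. No Plcg2KO library overlapped WT, and it rose there (log2 fold change 0.77, SE 0.23, adjusted p = 0.0255), a call lost without WT F1 or F3 or Plcg2KO F1 (range over 24 such fits 0.69 to 0.84, adjusted p up to 0.0654). In Trem2KO the value was 0.64 (adjusted p = 0.0542), and 0.71 (adjusted p = 0.0159) with offsets. Grin2c (chromosome 11, 115249169 to 115267243, minus strand), encoding GluN2C, which is known from cerebellum and glia, stood at 31.0, 40.9 and 46.0 CPM in WT, 37.2, 39.2 and 47.9 in Trem2KO, 19.7, 24.1 and 28.0 in Plcg2KO and 25.1, 42.4 and 61.3 in the libraries labelled Plcg2HET. Every Plcg2KO library lay below every WT and Trem2KO library, and Grin2c fell in Plcg2KO against WT (log2 fold change -0.70, SE 0.17, adjusted p = 0.00613) and against Trem2KO (log2 fold change -0.76, SE 0.17, adjusted p = 0.0085). With offsets the values were -0.65 (adjusted p = 8.2e-05) and -0.44 (adjusted p = 0.0156). Among the libraries labelled Plcg2HET it stood at 26.8 and 25.1 CPM in M3 and F2 against 42.0 to 61.3 in the other 4.

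Grin2d (chromosome 7, 45832483 to 45866681, minus strand), encoding GluN2D, an embryonic and interneuron subunit, stood at 4.37, 7.29 and 9.22 CPM in WT, 10.2, 11.7 and 15.4 in Trem2KO, 6.09, 7.64 and 8.53 in Plcg2KO and 6.57, 12.5 and 16.4 in the libraries labelled Plcg2HET. Trem2KO did not overlap WT or Plcg2KO, and Grin2d rose in Trem2KO (log2 fold change 0.77, SE 0.19, adjusted p = 0.00737), 0.45 (adjusted p = 0.012) with offsets. Plcg2KO differed from WT by 0.04 (95% interval -0.35 to 0.44), and its call against Trem2KO was lost with offsets, at -0.39 (adjusted p = 0.0533). In the libraries labelled Plcg2HET it was higher (log2 fold change 0.73, SE 0.19, adjusted p = 0.0102), with 7.49 and 6.57 CPM in M3 and F2 against 10.6 to 16.4 in the other 4. Grin1 (chromosome 2, 25291177 to 25319187, minus strand), encoding the obligatory GluN1, had means of 521 ± 109 CPM in WT, 774 ± 103 in Trem2KO, 588 ± 55.4 in Plcg2KO and 772 ± 251 in the libraries labelled Plcg2HET (SD, n = 6). It rose in Trem2KO (log2 fold change 0.58, SE 0.16, adjusted p = 0.0145), with no overlap with WT, and was higher in the libraries labelled Plcg2HET (log2 fold change 0.57, SE 0.16, adjusted p = 0.0149), with 493 and 536 CPM in M3 and F2 against 652 to 1117 in the other 4. The latter call was lost without labelled Plcg2HET M2 or F1 (range over 24 such fits 0.44 to 0.68, adjusted p up to 0.0608). Grin1 shares 1307 exon bases with the antisense transcript Grin1os, and since no source used here gives the strand setting of the counting, reads of the pair may be mixed. Grin3a, an NMDA subunit with its own glycine site, was called in no pair without offsets, and with them it was lower in the libraries labelled Plcg2HET, at -0.21 (adjusted p = 0.0183).

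**Figure D3:**
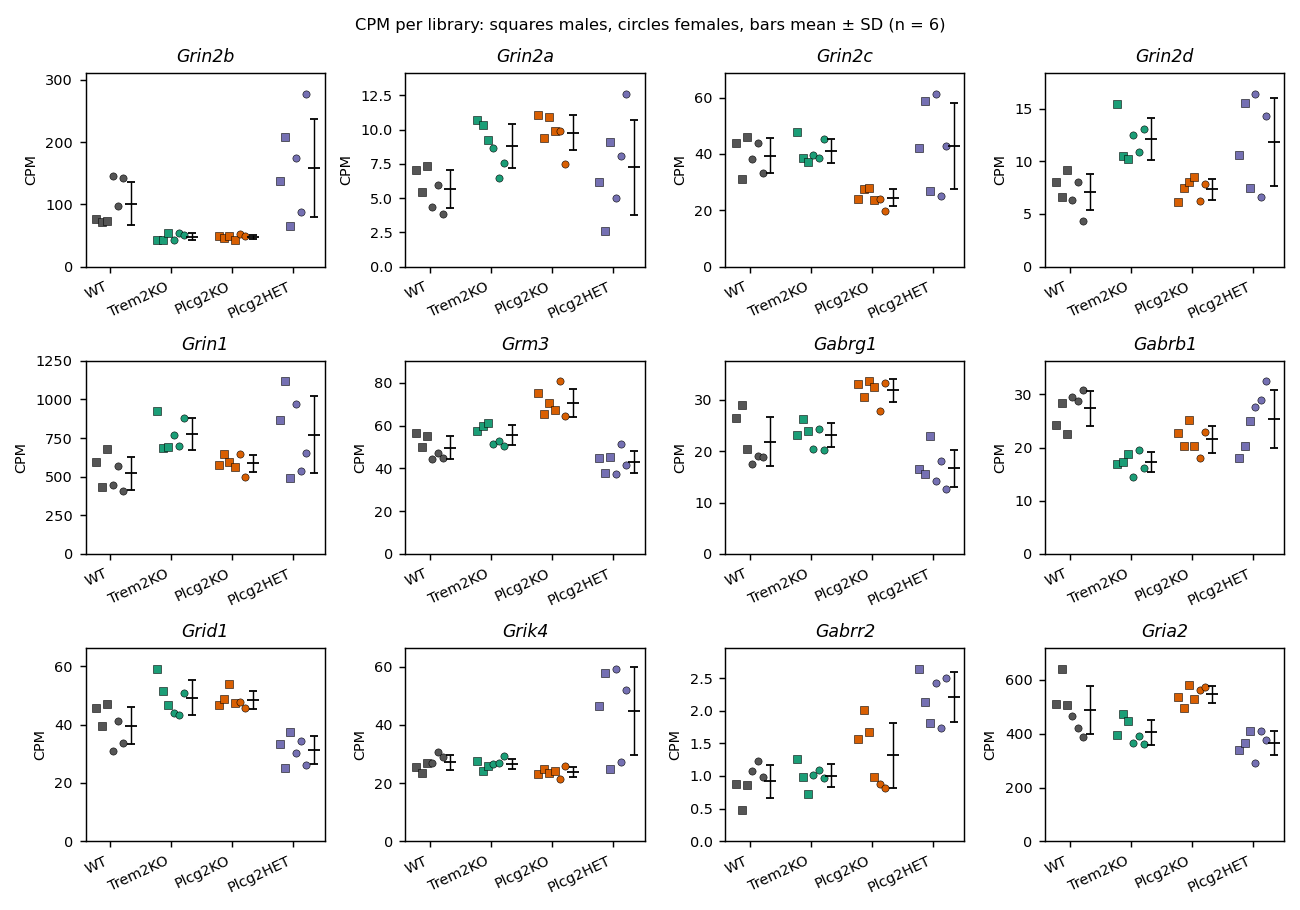
CPM in each library for 12 subunit genes, by genotype, on axes that start at 0; squares are males, circles females and bars mean ± SD of 6 mice. Grin2b separates both knockouts from WT, Grin2c separates Plcg2KO from WT and Trem2KO, and Grm3 separates Plcg2KO from every other group. The libraries labelled Plcg2HET divide for Grin2b, Grin2c, Grin2d and Grik4, and for Grin2c their M3 and F2 lie within the Plcg2KO range.

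AMPA receptor subunit genes did not pass the test in either knockout against WT. Gria2 (chromosome 3, 80684936 to 80802791, minus strand), whose edited product makes AMPA receptors impermeable to calcium, stood at 387, 487 and 642 CPM in WT, 361, 394 and 473 in Trem2KO, 494, 550.2 and 579.8 in Plcg2KO and 293, 371 and 410.5 in the libraries labelled Plcg2HET. Plcg2KO lay wholly above Trem2KO (log2 fold change 0.41, SE 0.10, adjusted p = 0.0121), with 0.15 and -0.27 against WT (adjusted p = 0.361 and 0.0683). With GC and length offsets the difference between the knockouts was 0.03 (adjusted p = 0.853). Gria2 was lower in the libraries labelled Plcg2HET (log2 fold change -0.41, SE 0.10, adjusted p = 0.00598), with 410.5 and 410.5 CPM in M3 and F2 against 293 to 375 in the other 4, overlapping WT. Gria3 and Gria4 had log2 fold changes of 0.35 (adjusted p = 0.161) and 0.22 (adjusted p = 0.324) in Plcg2KO, and their means ran from 154 to 212 and from 69.7 to 96.4 CPM over the genotypes.

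Among kainate receptor genes, Grik4 (chromosome 9, 42520412 to 42944371, minus strand), encoding a high-affinity subunit, stood at 23.3, 26.9 and 30.9 CPM in WT, 24.03, 26.8 and 29.2 in Trem2KO, 21.3, 23.9 and 26.1 in Plcg2KO and 24.9, 49.2 and 59.4 in the libraries labelled Plcg2HET. The ranges of WT and both knockouts overlapped, and it was higher in the libraries labelled Plcg2HET (log2 fold change 0.72, SE 0.15, adjusted p = 0.00224), with 24.9 and 27.4 CPM in M3 and F2 against 46.4 to 59.4 in the other 4. The 2 libraries M3 and F2 lay within the WT range. Grik2 (chromosome 10, 49099463 to 49788754, minus strand), encoding GluK2, stood at 31.1, 42.1 and 46.1 CPM in WT, 39.4, 43.5 and 45.2 in Trem2KO, 44.3, 47.9 and 49.1 in Plcg2KO and 25.5, 32.7 and 34.7 in the libraries labelled Plcg2HET and was lower in the libraries labelled Plcg2HET (log2 fold change -0.33, SE 0.09, adjusted p = 0.0103). That call was lost with GC and length offsets, at -0.18 (adjusted p = 0.204).

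Grik3 (chromosome 4, 125490831 to 125714173, plus strand), encoding GluK3, stood at 49.2, 69.4 and 85.2 CPM in WT, 74.0, 90.5 and 99.5 in Trem2KO, 75.5, 81.9 and 97.8 in Plcg2KO and 46.4, 49.8 and 73.5 in the libraries labelled Plcg2HET. It rose in Trem2KO (log2 fold change 0.38, SE 0.12, adjusted p = 0.0311), overlapping WT, and the call was lost with offsets, at 0.23 (adjusted p = 0.0781), and without WT M2, F1 or F3 or Trem2KO M2, F1 or F2 (range over 24 such fits 0.31 to 0.44, adjusted p up to 0.0984). Grik5, the other high-affinity subunit gene, was lower in Plcg2KO (145 ± 16.5 CPM) than in Trem2KO (223 ± 35.5 CPM, SD, n = 6) with no overlap (log2 fold change -0.62, SE 0.18, adjusted p = 0.024). The Grik5 call was lost without Trem2KO M1 or F3 or Plcg2KO F2 (range over 24 such fits -0.67 to -0.55, adjusted p up to 0.0756) and with offsets, at -0.29 (adjusted p = 0.08). Grik1 was called over the 4 genotypes (adjusted p = 0.032) and in no pair without offsets, with means of 10.4 to 12.4 CPM, and with offsets it was higher in Trem2KO than in WT, at 0.22 (adjusted p = 0.0374).

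Delta receptor genes encode subunits that bind synaptic organizers of the cerebellin family and are not opened by glutamate. Grid1 (chromosome 14, 34820136 to 35581115, plus strand) stood at 30.8, 40.5 and 47.0 CPM in WT, 43.5, 48.7 and 59.3 in Trem2KO, 45.6, 47.5 and 54.1 in Plcg2KO and 25.1, 31.9 and 37.5 in the libraries labelled Plcg2HET. It rose in Trem2KO (log2 fold change 0.32, SE 0.10, adjusted p = 0.0327), overlapping WT, and was lower in the libraries labelled Plcg2HET (log2 fold change -0.34, SE 0.10, adjusted p = 0.0216). The Trem2KO call was lost without WT M2, F1 or F3 or Trem2KO M1 or F3 (range over 24 such fits 0.27 to 0.36, adjusted p up to 0.0953), and the other without WT M3 or labelled Plcg2HET M2 or F3 (range over 24 such fits -0.40 to -0.27, adjusted p up to 0.0581). In Plcg2KO the Grid1 value was 0.26 (adjusted p = 0.0849).

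Among metabotropic receptors, Grm3 (chromosome 5, 9485236 to 9725352, minus strand), the group II receptor gene expressed in astrocytes as well as neurons, stood at 44.2, 48.8 and 56.8 CPM in WT, 50.3, 55.2 and 61.3 in Trem2KO, 64.3, 68.8 and 80.7 in Plcg2KO and 37.6, 43.3 and 51.3 in the libraries labelled Plcg2HET. All Plcg2KO libraries lay above all libraries of the other 3 groups. Grm3 rose in Plcg2KO against WT (log2 fold change 0.49, SE 0.09, adjusted p = 0.000354) and against Trem2KO (log2 fold change 0.33, SE 0.09, adjusted p = 0.017), and the values with offsets were 0.49 (adjusted p = 1.07e-05) and 0.29 (adjusted p = 0.0157). The call against Trem2KO was lost without Plcg2KO F1 (range over 24 such fits 0.27 to 0.36, adjusted p up to 0.0586). Of 10 astrocyte markers, 2 were higher and 1 lower in Plcg2KO than in WT (30%, against 13.1% of all genes tested). Their summed CPM was 5051 to 5992 in Plcg2KO and 4878 to 5523 in WT. None of these markers was at 0, and their part in the Grm3 result was not tested.

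Grm2, the other group II receptor gene, rose in Trem2KO (log2 fold change 0.46, SE 0.16, adjusted p = 0.0487) and was lower in Plcg2KO than in Trem2KO (log2 fold change -0.47, SE 0.16, adjusted p = 0.0454). With offsets the second call was lost, at -0.20 (adjusted p = 0.253). The first call was kept in 11 of 24 fits that each left out 1 library (0.40 to 0.54, adjusted p up to 0.126), and the second in 10 of 24 (-0.58 to -0.40, adjusted p up to 0.128). Without WT M2, for one, the first was lost, and without Trem2KO M1 both. Grm4, a group III receptor gene, rose in Trem2KO (log2 fold change 0.53, SE 0.16, adjusted p = 0.0246), lost with offsets, at 0.28 (adjusted p = 0.0576), and without WT M2, F1 or F3 or Trem2KO M1 or F3 (range over 24 such fits 0.46 to 0.58, adjusted p up to 0.0743). It was also higher in the libraries labelled Plcg2HET (log2 fold change 0.64, SE 0.16, adjusted p = 0.00763). Of these, M3 and F2 held 20.47 and 25.06 CPM, within the WT range of 16.24 to 27.01, and the other 4 held 31.39 to 51.95. Without the libraries rich in Rn45s this call was lost, at 0.55 (adjusted p = 0.088, edgeR). Grm4 means were 22.4 ± 4.08 CPM in WT, 32.0 ± 4.40 in Trem2KO, 25.4 ± 3.32 in Plcg2KO and 34.7 ± 11.4 in the libraries labelled Plcg2HET (SD, n = 6). The group I gene Grm5 and the group III genes Grm7 and Grm8 were called in no pair without offsets, and Grm5 (adjusted p = 0.00722) and Grm8 (adjusted p = 0.016) differed over the 4 genotypes. With offsets Grm5 and Grm7 were lower in the libraries labelled Plcg2HET, at -0.29 (adjusted p = 0.00358) and -0.21 (adjusted p = 0.0355). The Plcg2KO means of Grm5 and Grm8 of 173 ± 10.3 and 16.5 ± 1.86 CPM were the highest of the 4 groups, with log2 fold changes against WT of 0.35 and 0.36.

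Among GABA-A receptor genes, Gabrg1 (chromosome 5, 70751047 to 70842617, minus strand), encoding a gamma subunit found in glia and few neurons, stood at 17.4, 19.7 and 29.0 CPM in WT, 20.3, 23.5 and 26.3 in Trem2KO, 27.8, 32.7 and 33.6 in Plcg2KO and 12.7, 16.01 and 22.9 in the libraries labelled Plcg2HET. Plcg2KO lay above all Trem2KO libraries and overlapped WT only through WT M2, and M3 was the highest of the libraries labelled Plcg2HET. Gabrg1 rose in Plcg2KO (log2 fold change 0.52, SE 0.11, adjusted p = 0.00201) and was lower in the libraries labelled Plcg2HET (log2 fold change -0.38, SE 0.11, adjusted p = 0.0173). With offsets the values were 0.28 (adjusted p = 0.0141) and -0.23 (adjusted p = 0.0443). The call in the libraries labelled Plcg2HET was lost without WT M2 or labelled Plcg2HET F3 (range over 24 such fits -0.47 to -0.31, adjusted p up to 0.0608). Gabrg3, another gamma subunit gene, rose from 2.81 ± 0.381 CPM in WT to 4.71 ± 1.04 in Plcg2KO (log2 fold change 0.70, SE 0.18, adjusted p = 0.0098), a call lost without Plcg2KO F1 (range over 24 such fits 0.54 to 0.81, adjusted p up to 0.0602).

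Gabrb1 (chromosome 5, 71700016 to 72137244, plus strand), a beta subunit gene, stood at 22.6, 28.6 and 30.8 CPM in WT, 14.4, 17.1 and 19.6 in Trem2KO, 18.0, 21.6 and 25.2 in Plcg2KO and 18.1, 26.4 and 32.5 in the libraries labelled Plcg2HET. No Trem2KO library reached the WT range, and Gabrb1 fell there (log2 fold change -0.66, SE 0.12, adjusted p = 0.000366), with -0.42 (adjusted p = 0.00344) after offsets. In Plcg2KO the value was -0.31 (adjusted p = 0.082). Gabrb2 had -0.29 in Trem2KO and 0.22 in Plcg2KO, with no call against WT. Between the knockouts Gabrb2 was higher in Plcg2KO (log2 fold change 0.51, SE 0.16, adjusted p = 0.0358), lost without Trem2KO M1, F1 or F3 or Plcg2KO F1 or F2 (range over 24 such fits 0.45 to 0.57, adjusted p up to 0.094).

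Gabra5, encoding an alpha subunit of extrasynaptic receptors, was lower in the libraries labelled Plcg2HET (log2 fold change -0.32, SE 0.09, adjusted p = 0.0186), lost without WT M2 (range over 24 such fits -0.38 to -0.28, adjusted p up to 0.052). It was not called in a knockout. Gabrd, encoding the delta subunit of tonic GABA-A receptors, fell in Plcg2KO, from 95.3 ± 12.4 to 70.8 ± 5.57 CPM (log2 fold change -0.44, SE 0.12, adjusted p = 0.0193), a call lost without WT M1 or Plcg2KO F1 (range over 24 such fits -0.51 to -0.39, adjusted p up to 0.0649). It was also below Trem2KO with no overlap (log2 fold change -0.47, SE 0.12, adjusted p = 0.0169), lost without Trem2KO M1 or Plcg2KO F1 (range over 24 such fits -0.52 to -0.43, adjusted p up to 0.0519). With offsets the Gabrd values were -0.26 (adjusted p = 0.014) and -0.28 (adjusted p = 0.0265). Of 14 inhibitory neuron markers 4 were higher and 0 lower in Plcg2KO than in WT (28.6%, against 13.1% of all genes tested). Their summed CPM was 1420 to 1594 in Plcg2KO against 1112 to 1395 in WT, and their part in the Gabrd result was not tested.

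Gabrq (chromosome X, 72825178 to 72842602, plus strand), encoding the theta subunit, was counted 2574 times over 24 libraries and stood at 0.751, 1.35 and 1.91 CPM in WT, 1.43, 2.01 and 2.38 in Trem2KO, 1.94, 2.59 and 2.82 in Plcg2KO and 0.770, 1.22 and 1.85 in the libraries labelled Plcg2HET. Plcg2KO did not overlap WT, and Gabrq rose there (log2 fold change 0.91, SE 0.21, adjusted p = 0.00378). The call in Trem2KO (log2 fold change 0.60, SE 0.21, adjusted p = 0.0487) was kept in 11 of 24 fits that left out 1 library (0.50 to 0.73, adjusted p up to 0.134), and was lost, for one, without WT F2. WT females held 0.751 to 1.08 CPM and WT males 1.63 to 1.91. Gabrr2 (chromosome 4, 33063112 to 33095865, plus strand), with 1855 counts in all, stood at 0.480, 0.929 and 1.22 CPM in WT, 0.724, 0.9998 and 1.26 in Trem2KO, 0.814, 1.27 and 2.01 in Plcg2KO and 1.73, 2.28 and 2.65 in the libraries labelled Plcg2HET. Its level in the libraries labelled Plcg2HET lay above all WT and Trem2KO libraries (log2 fold change 1.25, SE 0.23, adjusted p = 0.000851), with 1.80 and 1.73 CPM in M3 and F2 against 2.14 to 2.65 in the other 4. The call was kept in 24 of 24 fits that left out 1 library. Plcg2KO males M1, M2 and M3 (1.57, 2.01 and 1.68 CPM) stood above M4 and the females (0.814 to 0.977). GABA-B genes were called in no pair without offsets, and Gabbr2 differed over the 4 genotypes (adjusted p = 0.0143), with 0.31 (adjusted p = 0.106) in Plcg2KO and 0.41 (adjusted p = 0.0372) there with offsets.

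Many GABA-A genes lie in clusters of neighbours, a feature the choice of genes did not use. On chromosome 5 (70751047 to 72137244, mm10), Gabrg1, Gabra2, Gabra4 and Gabrb1 were all higher in Plcg2KO than in Trem2KO, by 0.42, 0.41, 0.33 and 0.35. Their adjusted p-values by edgeR were 0.0154, 0.0327, 0.04 and 0.0419. Against WT in Plcg2KO their values were 0.52, 0.15, 0.20 and -0.31, and 1 of 4, Gabrg1, was called. With GC and length offsets the differences between the knockouts were 0.05, 0.11, 0.10 and 0.10, and 0 of 4 were called (adjusted p = 0.224 to 0.736).

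The subunit genes differ widely in base composition, and their promoters differ as well. GC content was taken from the longest GENCODE M21 transcript of each gene, not from the counted exons. It ran from 35.3% for Gabrg1 to 65.0% for Grin2d. The 250 bases upstream of the annotated start are shown for 4 genes called between the knockouts without offsets, 2 lower in Plcg2KO than in Trem2KO (Grin2c, Grin2d) and 2 higher (Grm3, Gabrg1). With GC and length offsets Grin2c and Grm3 stayed called. Grin2d (-0.39, adjusted p = 0.0533) and Gabrg1 (0.05, adjusted p = 0.736) did not (edgeR). A link of these promoters to the contrast was not tested. The windows shown are RefSeq sequences of GRCm38.p6, 5′ to 3′ on the strand of the gene, with GC boxes (GGGCGG, either strand) in capitals. All lie on the minus strand, at chr11:115267244-115267493 (Grin2c), chr7:45866682-45866931 (Grin2d), chr5:9725353-9725602 (Grm3) and chr5:70842618-70842867 (Gabrg1), and none covers an exon of GENCODE M21.
Grin2c: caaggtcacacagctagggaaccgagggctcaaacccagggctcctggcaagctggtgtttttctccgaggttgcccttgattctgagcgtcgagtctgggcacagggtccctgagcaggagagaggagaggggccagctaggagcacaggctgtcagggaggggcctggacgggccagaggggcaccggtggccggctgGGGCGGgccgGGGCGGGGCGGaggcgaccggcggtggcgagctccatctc
Grin2d: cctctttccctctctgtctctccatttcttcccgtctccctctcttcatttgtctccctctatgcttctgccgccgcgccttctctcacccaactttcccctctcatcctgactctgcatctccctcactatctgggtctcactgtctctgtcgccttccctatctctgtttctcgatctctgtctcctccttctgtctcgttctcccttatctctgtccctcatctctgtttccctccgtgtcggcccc
Grm3: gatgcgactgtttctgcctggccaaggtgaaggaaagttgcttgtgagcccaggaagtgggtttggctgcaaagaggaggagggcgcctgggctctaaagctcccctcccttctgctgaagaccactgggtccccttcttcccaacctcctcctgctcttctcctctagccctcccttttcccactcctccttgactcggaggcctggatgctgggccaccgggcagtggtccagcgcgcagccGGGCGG
Gabrg1: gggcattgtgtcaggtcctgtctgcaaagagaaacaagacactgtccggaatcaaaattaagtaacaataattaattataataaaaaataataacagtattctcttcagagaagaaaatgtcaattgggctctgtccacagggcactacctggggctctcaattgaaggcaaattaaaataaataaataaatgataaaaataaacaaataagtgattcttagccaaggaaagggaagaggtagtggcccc
Their GC content was 68.8% for Grin2c, 54.4% for Grin2d, 62.4% for Grm3 and 35.6% for Gabrg1. A RefSeq window was matched for 26 of 41 subunit genes (33 windows). A GC box was found in 17 of 33 of these windows (51.5%), against 32.7% of 32851 windows of the same length, an E-box (CACGTG) in 1 of 33, that of Grin1 (6.02% of all), and a cAMP response element (TGACGTCA) in 0 of 33 (1.55% of all). These matches describe letters, not bound sites.

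Fold changes of the subunit genes followed the GC content of their longest GENCODE transcripts, as those of all genes did. The Spearman correlation across the 41 genes between fold change and GC content was -0.31 in Plcg2KO, 0.58 in Trem2KO and 0.61 in the libraries labelled Plcg2HET against WT, and -0.81 between Plcg2KO and Trem2KO. Across 15693 genes the values were -0.32, 0.35, 0.35 and -0.64. These are descriptions across genes that share libraries, and no p is given. Offsets that remove each library's trend with GC and length brought the values of the subunit genes to 0.04, 0.21, 0.30 and -0.37. With offsets, 14 subunit genes were called in Plcg2KO against WT (10 higher, 4 lower), with 8 of the 8 earlier calls among them, and 14 in Trem2KO (11 higher, 3 lower), with 8 of 10. Of all genes tested, 20% and 19.8% were then called in these 2 comparisons, against 13.1% and 15.7% without offsets. The libraries labelled Plcg2HET gave 17 (6 higher, 11 lower), with 10 of 12, and Plcg2KO against Trem2KO gave 4, all among the earlier 12: Grin2c, Grm3, Gabrb2 and Gabrd. Over all genes the shares were 22.8% with offsets against 18.0% without in the former, and 6.89% against 16.5% in the latter. Each called gene kept its direction. Genes called against WT only with offsets included Gabrb1, Grid1, Gabre, Gabrr2 and Gabbr2 in Plcg2KO, Grin2a, Grik1, Grm3, Gabrb2, Gabrg1 and Gabrg3 in Trem2KO, and Grik3, Grin3a, Grm5, Grm7, Gabra4 and Gabrg3 in the libraries labelled Plcg2HET.

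**Figure D4:**
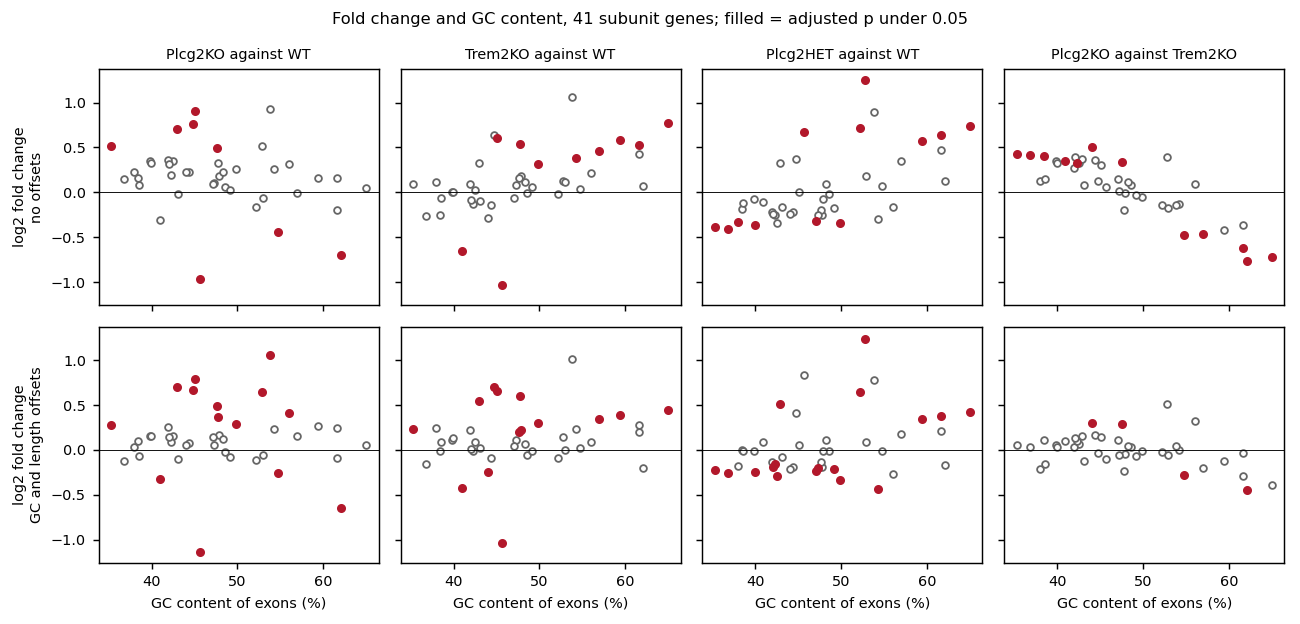
Log2 fold change of the 41 subunit genes against the GC content of their longest GENCODE transcripts in 4 comparisons. Panels are without (top) and with (bottom) offsets for GC and length, and filled points passed an adjusted p of 0.05. The slope is steepest for Plcg2KO against Trem2KO, where 12 calls become 4.

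Ratios of paired subunit genes within a library cancel the scaling of that library, but not its trend with GC content. They were taken on counts per exon length and compared with WT by an exact permutation test (two-sided, 6 mice in each group), with p adjusted over 9 tests, of which 6 are given, and 0.00216 the smallest unadjusted p it can give. Unlike the main fit, this test held no term for sex. The Grin2a to Grin2b ratio was 0.0446 to 0.168 in WT, 0.2 to 0.414 in Trem2KO, 0.258 to 0.38 in Plcg2KO and 0.0206 to 0.233 in the libraries labelled Plcg2HET. On the log2 scale WT males held -2.989 to -2.573 and WT females -4.486 to -3.296. Trem2KO males held -1.806 to -1.271 and females -2.319 to -1.57, and Plcg2KO males -1.563 to -1.395 and females -1.955 to -1.664. Each knockout lay wholly above WT, by a log2 difference of 1.67 in Trem2KO and 1.82 in Plcg2KO (each exact permutation p = 0.00216, adjusted p = 0.00974). The size depended on the quantification: the differences were 1.22 and 1.54 with the deposited expected counts and also with the deposited FPKM (exact permutation, adjusted p = 0.00974 each). The libraries labelled Plcg2HET differed by -0.32 (exact permutation, adjusted p = 0.606), with an SD of 1.23 on the log2 scale against 0.82 in WT and 0.21 in Plcg2KO. Since Grin2a and Grin2b were tested singly above, these ratios restate those 2 genes within libraries.

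The Gria2 to Gria1 ratio, which bears on the calcium permeability of AMPA receptors, had a mean of 0.903 in WT (range 0.778 to 1.19), 0.762 in Trem2KO (0.679 to 0.829), 0.973 in Plcg2KO (0.905 to 1.06) and 0.698 in the libraries labelled Plcg2HET (0.598 to 0.879). Log2 differences from WT were -0.25 in Trem2KO and -0.37 in the libraries labelled Plcg2HET (exact permutation, adjusted p = 0.0273 each), and 0.11 in Plcg2KO (adjusted p = 0.324, exact permutation). With expected counts the first was -0.21 and the second -0.35, with adjusted p-values of 0.0623 and 0.0584 by the exact permutation test. Without WT F1 they were -0.24 and -0.37 (adjusted p = 0.0545 each, exact permutation), and without labelled Plcg2HET F1 or F2 the second was -0.33 in each case (adjusted p = 0.0545, exact permutation). Without WT M2 the Gria2 to Gria1 difference in Plcg2KO was 0.19 (adjusted p = 0.039, exact permutation). The longest GENCODE transcript of Gria2 holds 36.8% GC and that of Gria1 48.5%, and GC trends differ between these groups of libraries. With GC and length offsets, Gria2 differed from WT by -0.15 (adjusted p = 0.167) in Trem2KO and -0.26 (adjusted p = 0.0178) in the libraries labelled Plcg2HET, and Gria1 by -0.06 (adjusted p = 0.526) and -0.02 (adjusted p = 0.855), all by edgeR. Without offsets the log2 fold changes were -0.27 and -0.41 for Gria2 and -0.01 and -0.01 for Gria1. In Plcg2KO the values with offsets were -0.125 (adjusted p = 0.283) for Gria2 and -0.027 (adjusted p = 0.794) for Gria1 by edgeR. Without offsets they were 0.146 and 0.064.

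**Figure D5:**
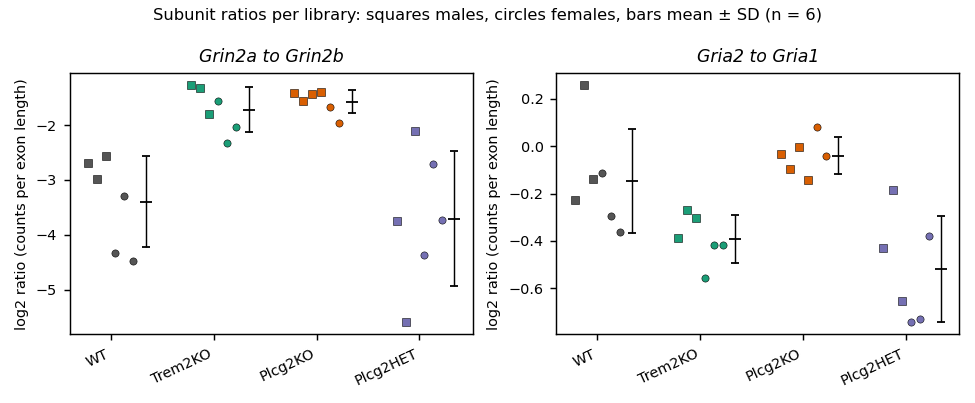
Log2 ratio of 2 pairs of subunit genes in each library, from counts per exon length; squares are males, circles females and bars mean ± SD of 6 mice. The Grin2a to Grin2b ratio of all 12 knockout libraries lies above all 6 WT libraries.

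Partner genes of the receptors were read from the same fit, as counts of calls. Over all genes tested, 13.1% were called in Plcg2KO, 15.7% in Trem2KO and 18.0% in the libraries labelled Plcg2HET against WT, and 16.5% between the knockouts, and shares of the lists below are given in that order. Of 9 genes for GABA synthesis and transport, 4 were higher and 0 lower in Plcg2KO and in Trem2KO against WT, with medians of 0.37 in each, and the shares called were 44.4%, 44.4%, 22.2% and 0% of these 9 genes. This list shares genes, Gad2 and Slc32a1 among them, with the inhibitory neuron markers above, so the counts of these lists are not independent. In Plcg2KO, Slc6a11, the GABA transporter GAT3 of astrocytes, rose from 154.7 ± 35.1 to 223 ± 17.3 CPM (log2 fold change 0.52, adjusted p = 0.00131 by edgeR), and Gad2, a GABA-synthesizing enzyme, from 153 ± 45.0 to 257 ± 13.6 CPM (0.74, adjusted p = 0.0071). In Trem2KO, Slc6a11 rose by 0.59 (adjusted p = 0.000376) and Slc32a1, the vesicular GABA transporter, by 0.43 (adjusted p = 0.00357). The libraries labelled Plcg2HET had 2 of 9 higher, Slc6a13 (0.63) and Slc6a11 (0.38), and Plcg2KO against Trem2KO had 0. Of 14 genes for glutamate synthesis and transport, 2 were higher and 1 lower in Plcg2KO, with Slc1a3, the astrocytic transporter GLAST, at 0.46 (adjusted p = 0.00125) and Slc17a6 at 0.41 (adjusted p = 0.0357), and 1 was higher in Trem2KO (Slc1a6, 0.38). In the libraries labelled Plcg2HET 2 were higher and 0 lower, Slc1a4 (0.35) and Slc1a6 (0.39), and 3 were lower in Plcg2KO than in Trem2KO, among them Slc1a6 (-0.53). The shares called of these 14 genes were 21.4%, 7.14%, 14.3% and 21.4%. Slc1a3 is also among the astrocyte markers above, and Slc17a6 among the thalamic ones.

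Of 18 AMPA and kainate receptor auxiliary subunit genes, 3 were higher and 0 lower in each knockout, with medians of 0.16 in Plcg2KO and 0.09 in Trem2KO. The shares called were 16.7%, 16.7%, 27.8% and 16.7%, near those of all genes in each comparison but that of the libraries labelled Plcg2HET. Shisa6, whose product holds AMPA receptors at synapses, rose by 0.53 in Plcg2KO (adjusted p = 0.016) and 0.58 in Trem2KO (adjusted p = 0.00865), Neto1, a kainate receptor partner, by 0.40 in Plcg2KO, and Cacng5 by 0.46 in Trem2KO. Against WT, 4 were higher and 1 lower in the libraries labelled Plcg2HET, with Shisa7 at 0.63 and Cacng2, encoding stargazin, at -0.61 (adjusted p = 0.00224). Of 23 excitatory scaffold genes, 3 were higher and 0 lower in Plcg2KO (Dlgap2 0.48, Dlg3 0.43), and 4 higher and 1 lower in Trem2KO, with Homer1, which links group I receptors to calcium stores, at -0.54 (adjusted p = 0.00859). Between Plcg2KO and Trem2KO 3 were higher and 4 lower, with Homer1 at 0.72 and Lrrtm2 at 0.59. Against WT, 2 were higher and 3 lower in the libraries labelled Plcg2HET, with Dlgap1 at -0.58 and Shank3 at -0.55. The scaffold shares were 13.0%, 21.7%, 21.7% and 30.4%, the first near that of all genes. Of 12 tested genes of the inhibitory postsynapse and GABA-B auxiliary subunits, 1 was higher in Plcg2KO (Gphn, gephyrin, 0.40), 3 in Trem2KO (Nlgn2 0.34 and Gphn 0.31 with the smallest p), and 1 in the libraries labelled Plcg2HET (Kctd16, 0.33), with 0 lower in each, and the shares were 8.33%, 25%, 8.33% and 16.7%, the last near that of all genes.

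Sexes were compared as the interaction of sex with each genotype difference from WT. No subunit gene was called in any of the 3 contrasts (edgeR, smallest adjusted p = 0.636), and 0 of all genes tested were called. An unadjusted p under 0.05 was found for 6 of 41 in Plcg2KO, 1 in Trem2KO and 3 in the libraries labelled Plcg2HET, and for 7.79%, 2.91% and 5.44% of all genes tested. Of these 6, Gabrr2 had a fold change lower in females than in males by a log2 difference of -1.46 (adjusted p = 0.636 by edgeR), and Gabrq had one higher by 1.18 (adjusted p = 0.636 by edgeR). The difference was positive, meaning a higher fold change in females, for 34, 36 and 34 of 41 genes in Plcg2KO, Trem2KO and the libraries labelled Plcg2HET, which share the WT libraries.

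The 2 genes that matched by name only were low. Grid2ip stood at 1.88 ± 0.509 CPM in WT and 2.95 ± 0.594 in Trem2KO (SD, n = 6) and rose there (log2 fold change 0.64, SE 0.22, adjusted p = 0.0488), a call kept in 8 of 24 fits that left out 1 library (0.51 to 0.78, adjusted p up to 0.134) and lost, for one, without WT M1. Grin1os stood at 0.525 ± 0.310 CPM in WT and was called in no comparison.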

How the data were processed

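RNA-seq libraries (KAPA mRNA kit, per the labels) of the cortex of 24 mice, 1 per mouse, were used. Counts per gene were deposited by the authors, made with STAR 2.7.10a and featureCounts 2.0.3 on mm10, per the submitters' processing notes, and their strand setting is not stated in any source used here. The authors also deposited expected counts and FPKM for the same libraries, made with a tool that no source used here names. Genes passed edgeR's filterByExpr (minimum count 10), leaving 16316 of 24421. Raw counts were scaled by TMM and fitted over all 24 libraries with genotype and sex in edgeR 4.0.16 (quasi-likelihood, R 4.3.3), with p adjusted by Benjamini-Hochberg over all genes tested. CPM were computed from TMM-scaled library sizes.

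Alternatives were RLE scaling, scaling to pan-neuronal genes, no filter, a model without sex, a block for the replicate code, 1 sex, 2 genotypes, DESeq2 1.42.0, rounded expected counts, offsets for GC content and length (15693 genes had a GC value), no libraries over 5% Rn45s, each library left out, and, chosen after seeing the data, the offsets with the block and a fit without labelled Plcg2HET M3 and F2. The fit was checked on simulated counts. Library values are given by rule for the 15 subunit genes with the smallest p over the 4 genotypes, and genes called in a pair are named with their fold change. Those of Grin2a (rank 29 by that p) were added beyond the rule, as it enters a tested ratio. Results of some items are not reported here. The genes, lists and tests were chosen with earlier results of these data known.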

Additional observations from a re-analysis of the deposited data

Results flagged for a closer look

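In 72 groups of 6 libraries, of subunit genes and of ratios, the gap of the highest or lowest library to its nearest neighbour was compared with the range of the group, and chance alone passes Dixon's 95% critical value in about 1 of 20 groups. Grik2 stood at 25.53 CPM in labelled Plcg2HET F1, where the other 5 lay between 31.7 and 34.7 (share 0.67). Grik3 stood at 97.78 CPM in Plcg2KO M2, where the other 5 lay between 75.5 and 82.9 (share 0.667).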

How the results depend on the processing

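Leaving out 1 library in turn gave 5 to 10 called subunit genes in Plcg2KO against WT, 5 to 12 in Trem2KO, 8 to 23 in the libraries labelled Plcg2HET and 3 to 17 in Plcg2KO against Trem2KO, against 8, 10, 12 and 12 with all libraries. Over these fits the share of all genes called in Plcg2KO against WT ran from 8.78% to 15.8%, against 13.1% with all libraries. Males alone gave 0 in each of these 4 and 9 of 41 over the 4 genotypes, with 2.25% and 0.44% of all genes called in Plcg2KO and Trem2KO. Females alone gave 6 in Plcg2KO (5 higher, 1 lower, 6.1% of all genes) and 5 in Trem2KO (5.81%). They gave 1 in the libraries labelled Plcg2HET, 0 between the knockouts and 14 over the 4 genotypes. Fits to 1 sex held fewer mice. Fits to the 2 genotypes compared gave 18, 16, 2 and 22. In the first 2 of these, 22.3% and 29.9% of all genes were called, against 13.1% and 15.7% in the main fit. Offsets for GC and length gave 14 in Plcg2KO against WT and 4 between the knockouts. Without the libraries rich in Rn45s, 5 were called in Trem2KO and 1 in the libraries labelled Plcg2HET. Scaling to pan-neuronal genes gave 23 in the latter. Without labelled Plcg2HET M3 and F2, chosen after seeing the data, 20 were called in Plcg2KO, 34 in the libraries labelled Plcg2HET and 20 between the knockouts. The share of all genes called moved as well. It is given above for the offsets, for pan-neuronal scaling and for the fits without these sets of libraries. Some counts in this section stand without that share, and they are not read as particular to the subunit genes. The cause of each change was not tested. No shared deviation of same-coded mice (M1, F2) was seen after the mean of each genotype and sex was taken out. There were 33 pairs, with a median correlation of -0.021 and 4 over 0.1, and 3 of 24 libraries were closest to their own code. With as few as 2 mice per genotype and sex, this check cannot exclude a pairing by the code. With the replicate block 6 were called between the knockouts, and 2 with the block and offsets together. No called gene changed direction in any setting. For the Gria2 to Gria1 ratio the log2 difference in Trem2KO was -0.21 with expected counts, -0.17 with deposited FPKM and -0.24 without the libraries rich in Rn45s, and in the libraries labelled Plcg2HET -0.35 in each of the 3, none past an adjusted p of 0.05 (exact permutation). Leaving out 1 library gave -0.29 to -0.17, 0.064 to 0.187 and -0.44 to -0.29 for Gria2 to Gria1 in Trem2KO, Plcg2KO and the libraries labelled Plcg2HET. Depth limits the low genes such as Gabrr2, with 1855 counts over 24 libraries.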
